A study of Mus musculus with 13 samples.

Results

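The replication-dependent histone genes supply the bulk of the H1, H2A, H2B, H3 and H4 proteins that package newly made DNA. Here they are the rows of the count tables whose identifier belongs, in the GENCODE M21 annotation of the mouse genome build GRCm38, to a protein-coding gene with a symbol from Hist1h to Hist4h. The annotation holds 67 such genes and 65 of them were found in both tables, out of 49315 gene identifiers in all. The other 2 were not analysed here. The 65 members comprise 6 genes of the linker histone H1, 18 of H2A, 16 of H2B, 12 of H3 and 13 of H4. They lie in 4 clusters, with 52 members in Hist1 (chr13:21715763-23934851), 10 in Hist2 (chr3:96219865-96270132), 2 in Hist3 (chr11:58948920-58956830) and 1 in Hist4 (chr6:136801553-136804415).

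Canonical histones are made almost only during S phase, when DNA is copied, and their messenger RNAs are unlike all others in ending in a conserved stem-loop in place of a poly(A) tail. The stem-loop binding protein Slbp and the U7 small nuclear ribonucleoprotein direct this ending, and the stem-loop also times the decay of the message when replication stops. Some members have a poly(A) signal further downstream as well, and cells that leave the cycle or differentiate are known to make polyadenylated histone messages from such genes. In a lymph node, dividing cells are mostly activated lymphocytes and germinal centre B cells, while in a melanoma most dividing cells are tumour cells.

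Bulk RNA was sequenced from intact lymph nodes that drain a tumour (tdLN), and from the tumours, in female mice bearing B16F10, a pigmented mouse melanoma line. All mice of the groups below carry Foxp3eGFP-Cre-ERT2, a Cre recombinase that tamoxifen activates and that is produced only by Foxp3-expressing cells, chiefly regulatory T cells. Foxp3ΔJag1 mice are Jag1fl/fl, so that the Notch ligand Jagged-1 can be deleted in those cells alone, and their controls, Foxp3Ctrl, are called WT in one label and fl/wt in the design text. Every group, controls included, received 5 doses of tamoxifen, each 0.1 mg per g of mouse, when 6 to 8 weeks old, then 9 days without drug, then 200000 B16F10 cells in matrigel in the skin of the flank at no more than 11 weeks of age. The groups used hold 3 nodes of Foxp3Ctrl mice, 3 nodes of Foxp3ΔJag1 mice and 3 tumours of Foxp3Ctrl mice, and the library names tie each control tumour to one of the control nodes as the same mouse. The 4 Foxp3ΔJag1 tumours were not analysed here.

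Libraries held 32117478 to 44540888 counts. The summed level of 5 B cell markers was 2801 to 3162 counts per 1000000 counts of the library (CPM) in the 6 nodes and 1.88 to 3.30 CPM in the 3 tumours, and that of 7 melanocyte markers was 10.8 to 36.5 CPM in nodes and 17648 to 23066 CPM in tumours. Foxp3Ctrl node 3 had the highest melanocyte sum of the nodes and an epithelial marker sum of 122.5 CPM, against 6.94 to 33.9 CPM in the other 5 nodes. Jag1 read 22.0, 23.2 and 24.4 CPM in Foxp3Ctrl nodes and 27.8, 20.7 and 23.8 CPM in Foxp3ΔJag1 nodes, ranges that overlap. Since only Foxp3-expressing cells can lose the gene, whole-node counts do not check the genotype labels.

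The ends of the members' annotated transcripts are shown first, because they are what sets these messages apart from others and the values are given along them. The stem-loop was searched for after the stop codon, on the sense strand, as a pattern of 16 bases: GG, 3 pyrimidines, TT, a pyrimidine, T, any base, A, 3 purines and CC. It was found in 44 of the 65 members and in 18 of 21634 other protein-coding genes (0.0832%). It begins 22 to 59 bases after the stop codon (median 32.5). There are 8 forms, written 5′ to 3′ with the stem-loop in capitals and 5 flanking bases on each side, one member for each form.
Hist1h1c: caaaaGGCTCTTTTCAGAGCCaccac
Hist1h3c: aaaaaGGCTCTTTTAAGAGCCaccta
Hist2h2ac: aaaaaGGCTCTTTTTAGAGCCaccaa
Hist1h3g: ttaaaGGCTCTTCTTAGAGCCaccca
Hist1h4d: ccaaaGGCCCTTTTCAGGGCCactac
Hist1h4i: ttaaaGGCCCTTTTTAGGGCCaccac
Hist1h4b: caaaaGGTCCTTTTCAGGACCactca
Hist1h4a: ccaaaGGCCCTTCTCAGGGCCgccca
The form of Hist1h1c (chr13:23739512-23739527, plus strand) is shared by 24 members of the classes H1, H2A, H2B and H3. That of Hist1h3c is found in 6 members, and those of Hist2h2ac and Hist1h3g in 1 each. The form of Hist1h4d (chr13:23581950-23581965, plus strand) is found in 7 members, those of Hist1h4i and Hist1h4b in 2 each and that of Hist1h4a in 1. All 12 H4 stem-loops begin with GGCCC or GGTCC and none of the other 32 do.

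The poly(A) signal AATAAA was found after the stop codon of 18 members, against 79.5% of the 21634 other protein-coding genes. In 14 of the 18 the stem-loop is present as well, and in 4, among them Hist1h2bc and Hist2h2be, the signal stands alone. A further 30 members have the stem-loop without the signal. The last 17 have neither, and in 15 of these the annotated transcript stops at most 2 bases after the stop codon, so their ends are not annotated. The signal and its surroundings are shown for the 4 members that rose in tumours and for Hist3h2ba, which has the signal and fell.
Hist1h2bc: tatatAATAAAtgtcatgtaaagcaa
Hist2h2be: ttattAATAAAgttaccgattagttt
Hist1h1c: cttctAATAAAaagcgtttagttttc
Hist3h2a: tgcccAATAAAataagagtacgtgta
Hist3h2ba: gtattAATAAAtttggttcaattttg
The signal was taken as any AATAAA after the stop codon, and in 14 of the 18 members one lies at most 30 bases before the annotated end. In Hist1h2bc it lies 441 bases before that end. It lies 296 bases after the stop codon in Hist1h2bc (chr13:23692462-23692467, plus strand), 2171 in Hist2h2be (chr3:96223717-96223722, plus strand), 855 in Hist1h1c (chr13:23740342-23740347, plus strand), 1667 in Hist3h2a (chr11:58956797-58956802, plus strand) and 187 in Hist3h2ba (chr11:58949507-58949512, plus strand). Only Hist1h2bc of these 5 has more than 1 exon, with 2 exon blocks between 23684199 and 23692908 on chromosome 13.

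Histone messages were a small part of every library. The 65 members together had 104.6, 82.4 and 87.5 CPM in the Foxp3Ctrl nodes, 108.2, 86.3 and 99.8 CPM in the Foxp3ΔJag1 nodes and 114.9, 128.1 and 151.1 CPM in the tumours. The sums of the node genotypes overlapped, and every tumour lay above every node. For scale, 11 genes listed as replication-independent histone variants summed to 1806 ± 106 CPM in control nodes and 2465 ± 90.5 CPM in tumours (SD, n = 3). Messages without a poly(A) tail are lost if poly(A) RNA was selected, which the protocol leaves unclear. The sums therefore compare library counts and do not rank the messages in the tissue. Of the 65 members, 38 had a count in every library and 6 had at least 1 CPM in every library.

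Most of the histone counts came from 5 genes, namely the linker histone Hist1h1c, the H2B genes Hist1h2bc and Hist2h2be, the H2A gene Hist3h2a and the H4 gene Hist1h4i. These 5 held 66.2% to 69.1% of the histone counts in the 6 nodes and 90.2% to 92.1% in the 3 tumours. Their sum was 69.7, 55.9 and 60.5 CPM in control nodes and 103.6, 117.5 and 139.1 CPM in tumours. The other 60 members moved the opposite way as a sum, from 34.9, 26.5 and 27.0 CPM in control nodes to 11.3, 10.6 and 12.0 CPM in tumours, 2.61-fold lower. The 5 were chosen by their mean over the 9 libraries. Per kb of exon, the level in control nodes was 15.1 CPM per kb for Hist1h1c, 10.4 for Hist1h4i, 8.63 for Hist1h2bc, 5.10 for Hist2h2be and 3.57 for Hist3h2a. In tumours the same quantity was 28.7 for Hist1h1c, 5.13 for Hist1h4i, 30.5 for Hist1h2bc, 10.0 for Hist2h2be and 4.69 for Hist3h2a.

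By class, the summed levels of the nucleosome core histones H2B and H4 went apart. The summed H2B level was 31.2 ± 3.76 CPM in control nodes and 64.6 ± 9.70 CPM in tumours, while the H4 sum was 16.2 ± 2.64 CPM in control nodes and 6.28 ± 0.694 CPM in tumours (SD, n = 3). H1 stood at 27.6 ± 4.76 against 46.0 ± 11.4 CPM and H3 at 3.48 ± 0.866 against 1.91 ± 0.236 CPM. For H1, H2B, H3 and H4 no tumour overlapped any control node. The rises of the H1 and H2B sums came from single genes. Hist1h1c had a mean of 23.5 CPM in control nodes and 44.7 CPM in tumours. Hist1h2bc had means of 9.98 and 35.2 CPM in these groups, and Hist2h2be 13.4 and 26.3 CPM. H2A, at 13.1 ± 1.71 CPM in control nodes and 12.5 ± 1.60 CPM in tumours, overlapped. In Foxp3ΔJag1 nodes each class sum lay between 1.02 and 1.15 times that of the controls, and the ranges of the genotypes overlapped in every class.

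**Figure D1:**
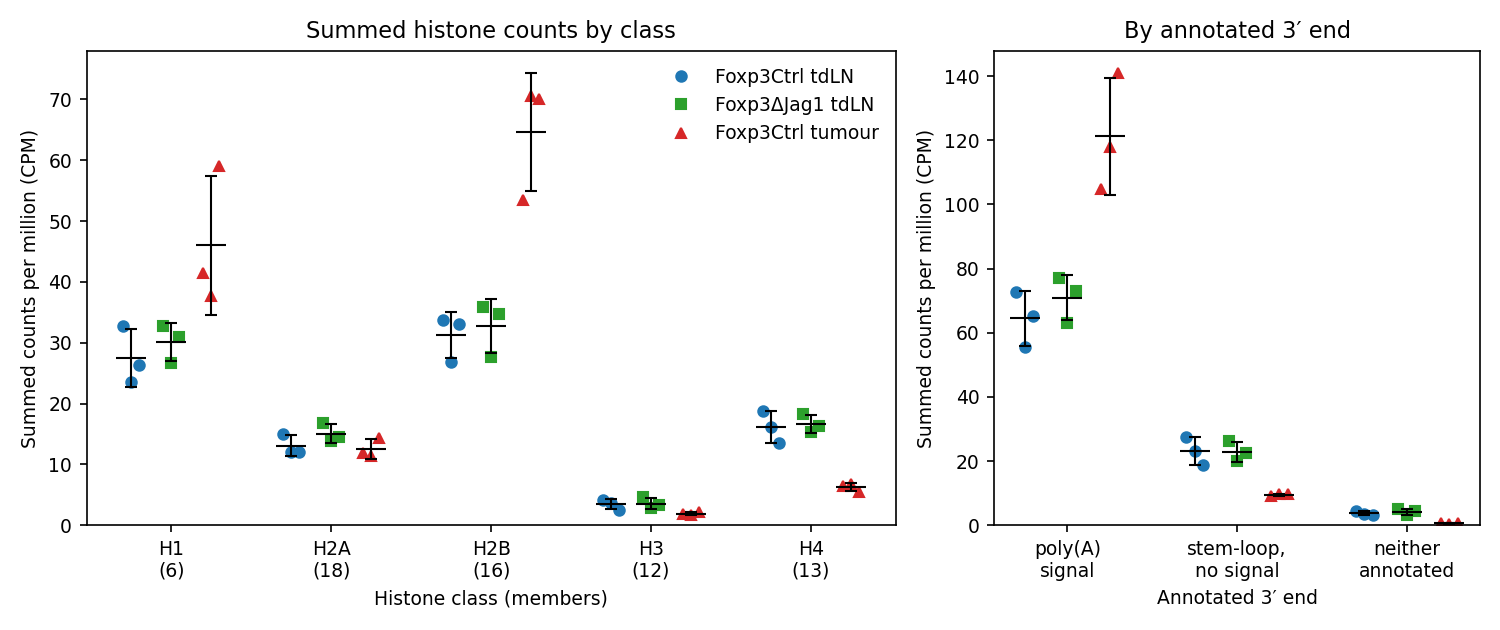
Summed CPM of the members of each histone class (left) and of each kind of annotated 3′ end (right), 1 point per library, with the mean and SD of the 3 libraries of each group. The tumours lie above both groups of nodes for H1, H2B and the 18 members with a poly(A) signal, and below them for H3, H4 and both sets of members without the signal. Hist1h1c holds most of the H1 counts, and Hist1h2bc and Hist2h2be most of the H2B counts. Together these genes hold most of the counts of the 18.

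Levels of single members must be read with the likeness of their sequences in mind. Over members with a count, a median of 60.5% of the annotated bases lay in stretches of 75 bases that are identical in the transcript of another gene. Reads from such stretches cannot be given to 1 gene with certainty, and how the authors' counting treated them is not given in the sources used here. The 7 members with 0 counts in all 9 libraries were Hist2h2aa1, Hist2h2aa2, Hist2h3c1, Hist2h3b, Hist2h2bb, Hist1h2br and Hist1h2aa. In the first 5 of these the shared bases are 100% of the transcript, and every exon base also lies inside an exon of another annotated gene (Gm20632, Gm20633, Gm20634 or Gm20628). For Gm20632, the tables gave 38 to 66 counts in the nodes and 71 to 95 in the tumours. A listed 0 for these 5 therefore does not bear on whether the gene was transcribed.

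The testis members set the low end. Hist1h2aa, an H2A gene of the male germ line, had no count in any library, which allows a level of at most 0.0674 to 0.0934 CPM depending on the library (3 counts, counting error only). Its neighbour Hist1h2ba, the testis H2B, had 1 count in tumour 2 and none elsewhere. Hist1h1t, the testis linker histone, had 0, 0 and 4 counts in control nodes, none in Foxp3ΔJag1 nodes and 5, 5 and 6 counts in the tumours. It is the only 1 of the 3 with counts in all 3 tumours, at 0.147 ± 0.0346 CPM.

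The first comparison asked which members differ between the tumour and the draining node of the same control mice. In the 3 Foxp3Ctrl mice, 4 members rose in tumours and 19 fell among 30 that passed the filter on low counts (edgeR quasi-likelihood test, Benjamini-Hochberg adjusted p under 0.05 over all genes). Over all 18566 genes tested, 35.6% rose and 37.6% fell, 73.2% in all. The count of falls is partly set by the filter, since 17 of the 30 members could not have passed it from the tumours alone. These gave 15 of the 19 falls. Of the 13 that had enough counts in the tumours alone, 4 rose and 4 fell. The median log2 fold change was -1.41 over the 30 members and -0.05 over all genes, and it carries the same limit. The other 35 members had too few counts to be tested, 7 of them none at all. Whole tissues were compared, so a lower value cannot be told apart between fewer cells that make the message and less message per cell. Node and tumour also differ in nearly all of their cells, as the marker sums above show, and the part of that in these results was not tested.

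Both abundant H2B genes rose, while 3 of the other 5 tested H2B members fell. These 3 had passed the filter only through the nodes, and over all genes tested 35.6% rose and 37.6% fell. Hist1h2bc (chr13:23684199-23692908) had 10.9, 9.71 and 9.31 CPM in the control nodes and 28.9, 37.1 and 39.7 CPM in the tumours. Hist2h2be (chr3:96221119-96223738) had 14.2, 10.3 and 15.6 CPM in the nodes and 21.4, 30.5 and 27.1 CPM in the tumours. Neither gene's ranges overlapped. The log2 fold change was 1.87 ± 0.158 for Hist1h2bc, a 3.67-fold rise (SE, edgeR adjusted p = 2.03e-05), and 1.04 ± 0.184 for Hist2h2be, a 2.06-fold rise (edgeR adjusted p = 0.00117).

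The linker histone Hist1h1c (chr13:23738808-23740367), which encodes H1.2, had the highest mean CPM of the 65 in either tissue. It had 27.5, 20.2 and 22.7 CPM in the nodes and 40.2, 36.2 and 57.8 CPM in the tumours, and the log2 fold change was 0.98 ± 0.195 (edgeR adjusted p = 0.00227). Hist3h2a (chr11:58954685-58956830), an H2A gene outside the large clusters, had 8.51, 7.08 and 7.39 CPM in the nodes and 9.29, 9.37 and 11.6 CPM in the tumours. Its rise was small, 0.45 ± 0.17 on the log2 scale (edgeR adjusted p = 0.0421). With the mouse as a block the adjusted p was 0.0711, and without control node 2, control node 3, tumour 2 or tumour 3 it was 0.0982, 0.11, 0.0501 and 0.114. Hist3h2a shares 708 of its 2146 exon bases with Trim17, which had 38 to 60 counts per node and 20 to 31 per tumour against 262 to 411 for Hist3h2a.

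The member next to Hist3h2a had the second largest fall. Hist3h2ba, an H2B gene that ends 5151 bases before Hist3h2a on the same strand, had 3.99, 2.65 and 3.53 CPM in the nodes and 0.16, 0.0244 and 0.125 CPM in the tumours, with no overlap. The log2 fold change was -4.97 ± 0.483, a 31.4-fold lower level (edgeR adjusted p = 4.39e-05). Hist3h2ba had 6, 1 and 4 counts in the tumours and had passed the filter only through the nodes. Both genes of this pair have a stem-loop of the same form and a poly(A) signal. Their RefSeq promoter windows (GRCm38.p6, 250 bases upstream of each start, chr11:58948661-58948910 for Hist3h2ba and chr11:58954435-58954684 for Hist3h2a, both plus strand) are shown because the neighbours moved in opposite directions. In capitals, on either strand, are a TATA box motif (TATAAA), the core of the CCAAT box (CCAAT) and the octamer bound by Oct1 (ATTTGCAT).
Hist3h2ba: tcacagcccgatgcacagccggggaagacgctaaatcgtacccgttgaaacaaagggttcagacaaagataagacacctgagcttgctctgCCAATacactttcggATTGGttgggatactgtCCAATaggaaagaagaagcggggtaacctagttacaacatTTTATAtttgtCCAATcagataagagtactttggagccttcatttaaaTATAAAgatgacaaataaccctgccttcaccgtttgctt
Hist3h2a: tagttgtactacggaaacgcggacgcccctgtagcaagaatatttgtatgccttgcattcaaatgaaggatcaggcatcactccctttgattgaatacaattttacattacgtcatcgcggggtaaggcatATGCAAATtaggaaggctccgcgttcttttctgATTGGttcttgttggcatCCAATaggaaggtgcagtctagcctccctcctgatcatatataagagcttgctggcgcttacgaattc
The window of Hist3h2ba holds 2 TATAAA and 4 CCAAT motifs and no ATTTGCAT. That of Hist3h2a holds 2 CCAAT and 1 ATTTGCAT motif and no TATAAA. Windows of this kind were matched to 60 of the 65 members. CCAAT is present in all windows of H1, H2A and H2B members but in 3 of 12 for H4, against 33.8% of 32790 windows of other genes. TATAAA is present in 48.3% of the members' windows and 12.3% of the others, and ATTTGCAT in 20% and 1.56%, for the members in H2A and H2B windows alone. A match is a description of the letters and no evidence of a bound factor.

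Among H2A members, 4 of 6 tested fell and 1 rose, and 4 of the 6 had passed the filter only through the nodes. Hist2h2ac had 2.29, 1.39 and 1.69 CPM in the nodes and 0.266, 0.269 and 0.311 CPM in the tumours, a log2 fold change of -2.60 ± 0.316 (edgeR adjusted p = 0.00015). For Hist1h2ai the values were 0.716, 0.766 and 0.62 CPM in nodes and 0.0533, 0 and 0.0311 CPM in tumours. With 81 node counts and 3 tumour counts, its level was 26.0 times lower in tumours (95% exact counting interval 8.59 to 129). Hist1h2ae, which has a poly(A) signal, had 1.02, 0.998 and 0.761 CPM in nodes and 1.07, 1.10 and 0.934 CPM in tumours, and its log2 fold change of 0.21 ± 0.27 did not pass the test (edgeR adjusted p = 0.508).

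In the H4 class 9 of 10 tested members fell and none rose, and 7 of the 10 had passed the filter only through the nodes. Hist1h4i, the most abundant, had 8.59, 8.57 and 5.44 CPM in the nodes and 3.83, 4.27 and 3.08 CPM in the tumours, a log2 fold change of -0.97 ± 0.267 (edgeR adjusted p = 0.0114). Hist1h4m went from 1.07, 0.766 and 0.931 CPM to 0.107, 0.0244 and 0.0623 CPM, and fell by 3.73 ± 0.456 on the log2 scale (edgeR adjusted p = 0.000154). Hist1h4n had 78 counts in the nodes and 1 in the tumours, a ratio of 75.1 with a 95% exact counting interval of 13.1 to 3006. These falls range widely in size, and no tumour overlapped a node in any of the 3 genes.

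Other H4 genes show the spread within the class. Hist2h4 had 1.24, 0.743 and 1.49 CPM in nodes and 0.399, 0.366 and 0.374 CPM in tumours (log2 fold change -1.53 ± 0.328, edgeR adjusted p = 0.00327). Hist4h4, the lone gene of its cluster, had 0.633, 0.418 and 0.649 CPM in nodes and 0.266, 0.244 and 0.187 CPM in tumours (-1.20 ± 0.335, edgeR adjusted p = 0.012). The adjusted p of Hist4h4 was 0.0578 without tumour 3 and 0.0642 with DESeq2. Hist1h4h, at 1.10, 0.929 and 0.733 CPM in nodes and 0.586, 0.732 and 0.716 CPM in tumours, did not pass the test (-0.39 ± 0.293, edgeR adjusted p = 0.259), although its lowest node lay just above its highest tumour.

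The other 3 tested linker histones fell in tumours. Hist1h1e had 2.37, 1.60 and 1.58 CPM in nodes and 0.506, 0.635 and 0.592 CPM in tumours, and fell by 1.62 ± 0.296 on the log2 scale (edgeR adjusted p = 0.0014). It shares 496 of its 1930 exon bases with Hist1h2be on the same strand, so part of its reads cannot be told apart from those of the neighbour. Hist1h1b fell from 0.964, 0.65 and 0.536 CPM to 0.133, 0.0732 and 0 CPM, a log2 fold change of -3.21 ± 0.638 (edgeR adjusted p = 0.0022). H1 thus held 1 rise and 3 falls among 4 tested members, beside 35.6% and 37.6% of all genes tested. Of the 4, Hist1h1b had passed the filter only through the nodes.

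Only 3 of the 12 H3 members had enough counts to be tested, and none of the 3 passed. Hist1h3c had 1.13, 0.929 and 0.479 CPM in nodes and 0.559, 0.268 and 0.405 CPM in tumours (-1.001 ± 0.436, edgeR adjusted p = 0.0689). Hist1h3e had 0.799, 0.604 and 0.536 CPM in nodes and 0.32, 0.439 and 0.343 CPM in tumours (-0.75 ± 0.322, edgeR adjusted p = 0.0657). Without control node 3 both passed, with adjusted p of 0.0163 and 0.0447, and in a joint fit of all 9 libraries Hist1h3c had an adjusted p of 0.0483. Hist1h3a, which was not tested for its low counts, had 0.688, 0.488 and 0.226 CPM in nodes and 0.107, 0.0488 and 0.0934 CPM in tumours. Hist1h3h and Hist1h3i had 32 and 19 counts over the 3 nodes and none in the tumours, so that their levels were at least 10.3-fold and 6.10-fold lower (against 3 counts over the 3 tumours).

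Over all members, whether tested or not, the 3 tumours lay wholly below the 3 nodes in 31 and wholly above them in 9, and they overlapped or were all at 0 in 25. Among 31788 genes with a count in these 6 libraries, 30.6% lay wholly below and 24.8% wholly above. Without a filter on low counts, 58 members were tested, 25 fell and 5 rose, beside 24.3% and 22.6% of all genes. With a filter of at least 1 CPM in at least 3 libraries, 11 were tested, 5 fell and 3 rose, and the median log2 fold change was -0.02. Hist1h4a, an H4 gene with the signal AATAAA, was the only member of its class to lie wholly higher in tumours, with 2, 5 and 4 counts in nodes and 11, 11 and 14 in tumours.

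**Figure D2:**
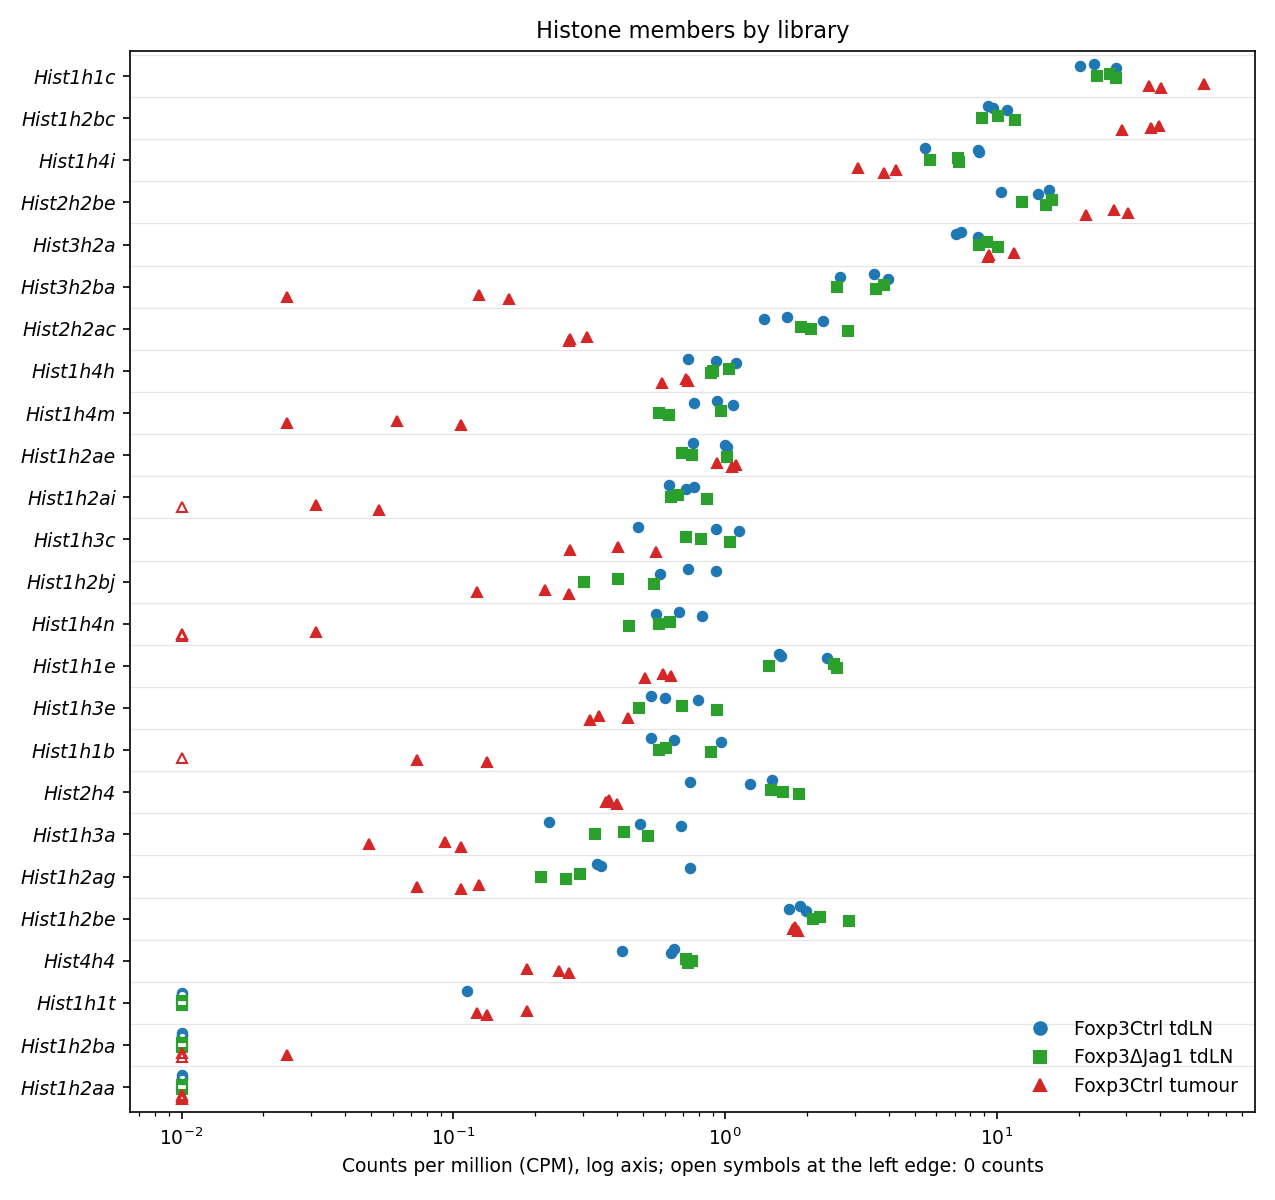
CPM of the 25 described members in each library on a log axis, ordered by mean CPM per kb of exon, with open symbols at the left edge for 0 counts. The 3 tumours lie to the right of the nodes for Hist1h1c, Hist1h2bc and Hist2h2be and far to the left for Hist3h2ba, Hist2h2ac, Hist1h4m and Hist1h4n, while the node genotypes mostly overlap.

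Along the annotated 3′ ends, all 4 members that rose have an AATAAA after the stop codon. Of the 18 with this signal, 10 were tested, of which 4 rose and 4 fell, shares near those over all genes (35.6% and 37.6%). Of the 30 with a stem-loop and no signal, 16 were tested, of which none rose and 11 fell. However, 11 of the 16 could not have passed the filter from the tumours alone. Of the 17 with neither, 4 were tested, all of them through the nodes only, so that their falls say nothing of the set. Counting every member by its ranges, tumours lay above nodes in 6 and below in 5 of the 18 with the signal, above in 2 and below in 16 of the 30 with the stem-loop alone, and above in 1 and below in 10 of the 17 with neither. Of all genes with a count, 24.8% lay above and 30.6% below. The 3 sets also differ in annotation and in sequence. In the same order, the median number of annotated bases after the stop codon was 851.5, 93.5 and 0. The median share of bases shared with other genes was 30.5%, 64.4% and 88.7%. Neither the difference between these sets nor the part of these features in it was tested.

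As sums, the 18 members with the signal had 72.6, 55.6 and 65.2 CPM in control nodes and 104.9, 117.9 and 140.9 CPM in tumours. The 30 with the stem-loop alone had 27.4, 23.1 and 18.9 CPM in nodes and 9.27, 9.86 and 9.62 CPM in tumours, 2.42-fold lower. The 17 with neither had 4.60, 3.65 and 3.36 CPM in nodes and 0.772, 0.366 and 0.592 CPM in tumours, 6.71-fold lower. The signal did not go with a higher level in every class, since the 4 H4 members that have it summed to 2.25 CPM in nodes and 0.982 CPM in tumours. In H2B the 7 members with it went from 28.7 to 63.5 CPM and the 9 without from 2.54 to 1.13 CPM. That H2B rise was the rise of Hist1h2bc, from 9.98 to 35.2 CPM, and of Hist2h2be, from 13.4 to 26.3 CPM. Among the other H2B members with the signal, Hist3h2ba went from 3.39 to 0.103 CPM and Hist1h2be from 1.86 to 1.82 CPM. Hist1h2bc, Hist2h2be and Hist1h1c, the last at 23.5 CPM in nodes and 44.7 CPM in tumours, held most of the counts of the 18.

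**Figure D3:**
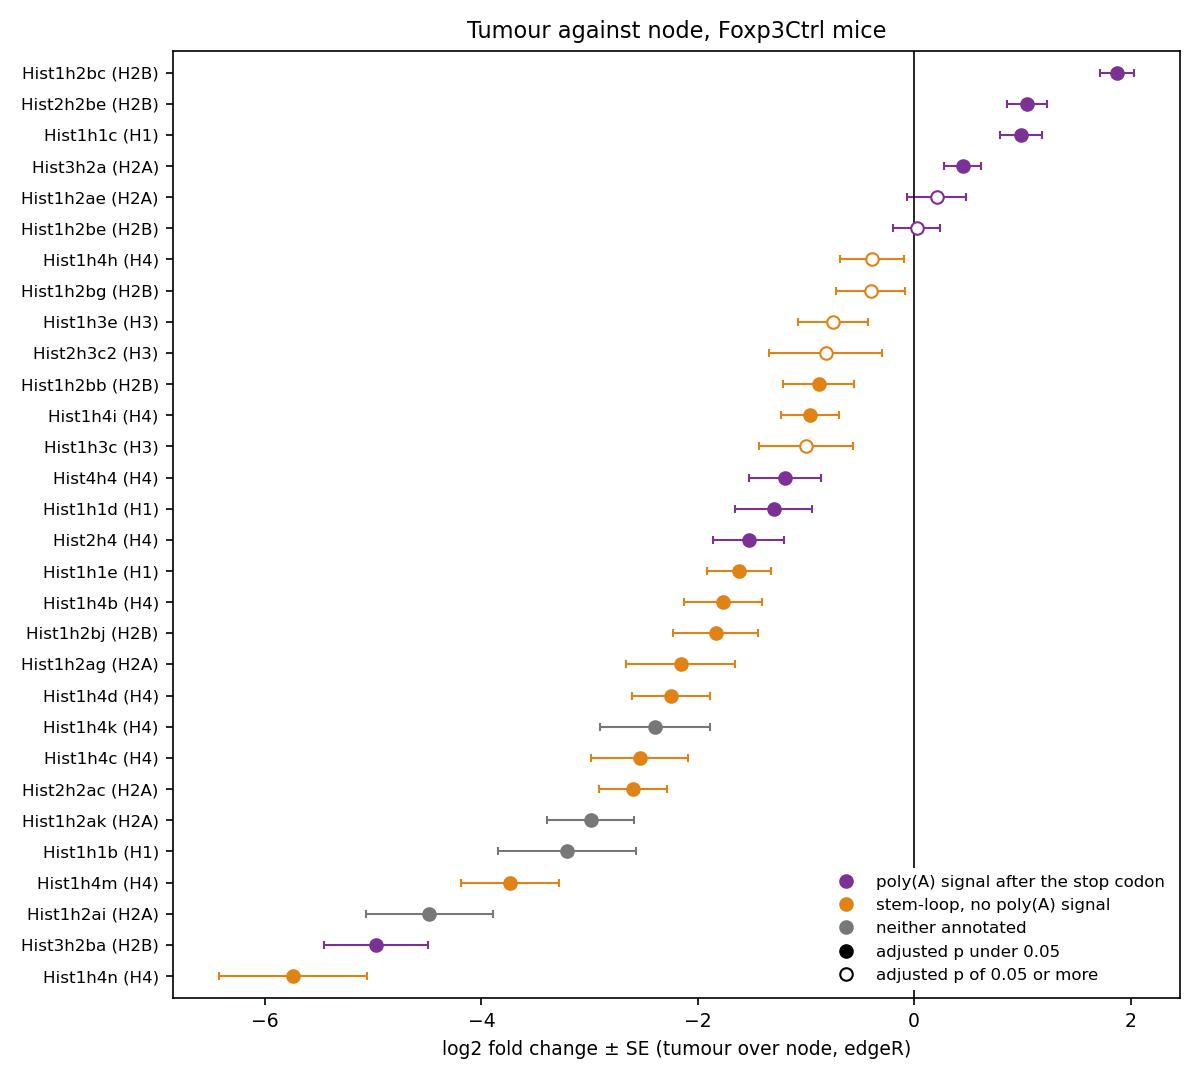
Log2 fold change with its standard error for the 30 tested members, tumour over node in Foxp3Ctrl mice, coloured by annotated 3′ end and filled where the edgeR adjusted p is under 0.05. The 4 filled points to the right of 0 all belong to members with a poly(A) signal, and Hist3h2ba, which also has one, lies near the lower end at -4.97.

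How a library is made bears on such messages, since those without a poly(A) tail are lost when poly(A) RNA is selected, and the protocol names both that selection and the removal of ribosomal RNA without saying which was used. A list of 16 other RNAs was therefore set beside the members, all of them without a poly(A) tail except Neat1, whose short form has one. Of its 7 tested genes 6 fell in tumours and none rose (median log2 fold change -1.46), where 37.6% of all genes tested fell and 35.6% rose. Scarna2, Rn7sk, Terc and Rmrp passed the filter on low counts only through the nodes, so their falls carry the limit given for the members. Rpph1 and Malat1, which also fell, had enough counts in the tumours alone. Scarna2, a guide RNA of the Cajal body, had 2.64, 1.88 and 3.21 CPM in control nodes and 0.24, 0.22 and 0.249 CPM in tumours, a log2 fold change of -3.37 ± 0.309 (edgeR adjusted p = 3.2e-05). Rn7sk, the 7SK RNA that restrains transcription elongation, fell by 3.64 ± 0.487 and Terc, the telomerase RNA, by 2.31 ± 0.449 on the log2 scale (edgeR adjusted p = 0.000253 and 0.00196). Neat1 did not pass the test (0.22 ± 0.235, edgeR adjusted p = 0.416). The part of RNA selection in the members' falls was not tested.

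Genes of DNA replication were also set beside the members. Of 24 genes of S phase and DNA replication, 23 rose in tumours and none fell (median log2 fold change 1.14). Over all genes tested, 35.6% rose and 37.6% fell. Of the 13 members that had enough counts in the tumours alone, 4 rose and 4 fell. Cdk2, the S phase kinase, rose by 3.56 ± 0.129 on the log2 scale, the largest rise of the list (edgeR adjusted p = 3.96e-07). Mcm2, a subunit of the replicative helicase, rose by 2.17 ± 0.155 (edgeR adjusted p = 8.52e-06). All 14 genes of G2 and mitosis rose (median 1.52), among them the spindle checkpoint kinase gene Bub1 by 2.17, the survivin gene Birc5 by 1.98 and the cyclin gene Ccnb1 by 2.14 on the log2 scale (edgeR adjusted p = 2.01e-05, 4.18e-05 and 9.88e-05).

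The genes that act on histones and their messages were mixed. In the list of histone pre-mRNA 3′ end processing and its control, 3 of 17 rose and 5 fell. The stem-loop binding protein gene Slbp stood at 68.9 ± 6.55 CPM in nodes and 69.9 ± 5.01 CPM in tumours (0.07 ± 0.117, edgeR adjusted p = 0.586). The nuclear cap-binding gene Ncbp2 rose by 0.58 ± 0.0838, Ctif, a factor of cap-dependent translation, rose by 1.25 ± 0.197 and Casp8ap2, a factor of histone locus bodies, fell by 0.74 ± 0.11 on the log2 scale (edgeR adjusted p = 0.000395, 0.000634 and 0.000475). Of 19 histone chaperones 8 rose and 3 fell. Chaf1b, a subunit of the replication-coupled chaperone CAF-1, rose by 2.01 ± 0.139, the histone acetyltransferase gene Hat1 rose by 1.17 ± 0.103 and Cabin1, a partner of the HIRA complex, fell by 0.98 ± 0.078 (edgeR adjusted p = 7.13e-06, 2.6e-05 and 1.49e-05).

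Among 11 replication-independent variants 5 rose and 3 fell. H1f0, the linker histone of differentiated and resting cells, rose by 2.49 ± 0.11, H1fx, another linker variant, by 2.14 ± 0.184, and H3f3b, which encodes H3.3, by 0.81 ± 0.132 on the log2 scale (edgeR adjusted p = 8.45e-07, 2.23e-05 and 0.000717). H1f0 stood at 73.6 ± 5.96 CPM in nodes and 398 ± 26.4 CPM in tumours, above the summed 46.0 CPM of the 6 replication-dependent H1 genes there. Because the selection of RNA is not known, this compares library counts and does not rank the messages in the tissue.

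By position, the members were joined where gaps are no more than 100 kb, and form 7 groups of neighbours, 4 of them in the Hist1 cluster. The group at chr13:21715763-21837530, from Hist1h2bl to Hist1h2br, has 17 members and summed to 6.44, 5.13 and 4.88 CPM in control nodes and 0.746, 0.244 and 0.436 CPM in tumours, 11.5-fold lower. Its 6 tested members had log2 fold changes of -2.40 to -5.74 and passed the filter only through the nodes, so no count of falls is drawn from them. In 12 of the 17 the tumours lay wholly below the nodes, beside the 30.6% of all genes with a count. The 28 members at chr13:23531050-23764406, from Hist1h4h to Hist1h1a, include Hist1h1c and Hist1h2bc, and their sum was higher in tumours, at 89.1 ± 15.7 against 48.4 ± 6.99 CPM. Without their 8 members that have a poly(A) signal, the remaining 20 summed to 10.6 CPM in nodes and 5.07 CPM in tumours, 2.08-fold lower. Of those 8, Hist1h1c and Hist1h2bc had means of 23.5 and 9.98 CPM in nodes and 44.7 and 35.2 CPM in tumours. No other member of this group was called higher. The 5 members between them, at chr13:22035164-22043676, were 2.19-fold lower.

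The group of 17 also differs in annotation and in sequence. A median of 89.0% of its bases are shared with other genes in stretches of 75 bases, against 45.5% in the group of 28, and 9 of its 17 members have no annotated base after the stop codon. The part of these features in the 11.5-fold lower sum was not tested, nor was any difference between the groups of neighbours.

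**Figure D4:**
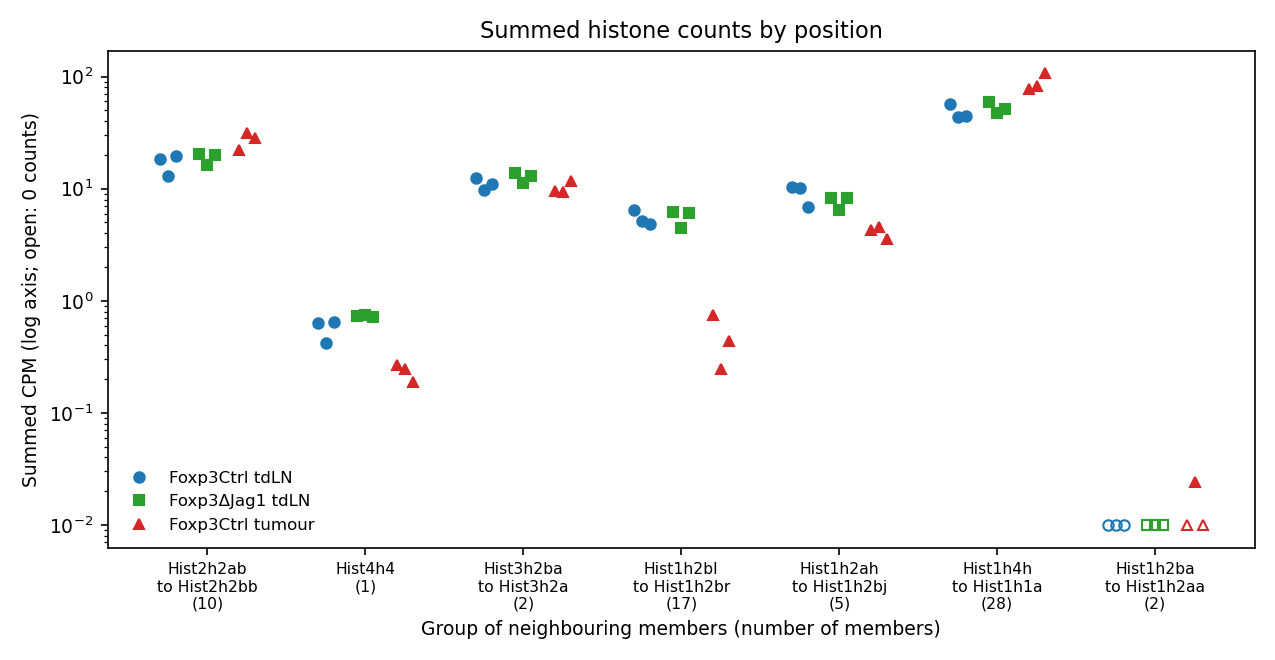
Summed CPM of the 7 groups of neighbouring members, 1 point per library on a log axis, with open symbols for 0 counts. The group from Hist1h2bl to Hist1h2br lies between 0.244 and 0.746 CPM in the tumours and between 4.43 and 6.44 CPM in the nodes, whereas the group from Hist1h4h to Hist1h1a lies higher in tumours.

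The second comparison asked whether the members differ between Foxp3ΔJag1 and Foxp3Ctrl nodes. No member was called among 36 that passed the filter on low counts (edgeR, 0 at adjusted p under 0.05), where 7 of 18440 genes were called (0.038%), 0.0325% higher and 0.00542% lower. Without the filter 56 members were tested and again none was called, beside 0.0413% of all genes called higher and 0.00953% lower. DESeq2 and limma-voom also called 0. At an unadjusted p under 0.05 there was 1 member, Hist1h2bj, against 3.15% of all genes. The median log2 fold change was 0.01 over the 36 and -0.00 over all genes, and it changed sign without control node 3 (-0.06) or Foxp3ΔJag1 node 1 (-0.05). This comparison and that of tumour with node share the 3 control nodes.

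The abundant members were close between genotypes. Hist1h2bc had 11.7, 8.81 and 10.1 CPM in the Foxp3ΔJag1 nodes (log2 fold change 0.00 ± 0.145), Hist1h1c had 27.5, 23.4 and 26.1 CPM (0.10 ± 0.127) and Hist2h2be had 15.1, 12.4 and 16.03 CPM (0.10 ± 0.163). Each of these ranges overlapped that of the control nodes given above. Hist3h2ba, 31.4-fold lower in tumours, had 3.59, 2.59 and 3.84 CPM in Foxp3ΔJag1 nodes (-0.04 ± 0.227). Hist1h4i had 7.29, 5.70 and 7.18 CPM (-0.19 ± 0.215). The standard errors over the 36 members run from 0.127 to 0.52 on the log2 scale.

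The smallest p-values belonged to a pair of neighbours. Hist1h2bj, an H2B gene, had 0.578, 0.929 and 0.733 CPM in control nodes and 0.547, 0.302 and 0.404 CPM in Foxp3ΔJag1 nodes (log2 fold change -0.86 ± 0.334, edgeR adjusted p = 0.953). Hist1h2ag, the H2A gene next to it, had 0.743, 0.348 and 0.338 CPM in control nodes and 0.26, 0.211 and 0.292 CPM in Foxp3ΔJag1 nodes (-0.90 ± 0.427, edgeR adjusted p = 0.953). In both genes the ranges of the genotypes did not overlap, yet neither difference passed the test, and the counts were 7 to 40 per library. They are transcribed away from each other, from starts at chr13:22042944 and chr13:22043214. The 250 bases upstream of Hist1h2bj in RefSeq (GRCm38.p6, chr13:22042948-22043197, plus strand) span the gap, with CCAAT on either strand in capitals.
Hist1h2bj: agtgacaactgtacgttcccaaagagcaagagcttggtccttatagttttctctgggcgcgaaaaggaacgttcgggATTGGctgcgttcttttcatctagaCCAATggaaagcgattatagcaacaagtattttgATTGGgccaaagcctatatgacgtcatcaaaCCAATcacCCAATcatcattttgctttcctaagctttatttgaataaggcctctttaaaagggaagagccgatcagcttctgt
This stretch has 5 CCAAT motifs and neither TATAAA nor ATTTGCAT. Such head-to-head pairs of 1 H2A and 1 H2B gene, with overlapping promoter windows, number 10 among the members. In 3 of the 10, this one included, both genes lay wholly lower in the tumours. Singly, 53.4% of members and 30.6% of all genes with a count did so. The other such pairs include members with few counts. Hist1h2bl had 13 in the control nodes and 0 in the tumours, and Hist1h2bn had 20 and 1. No pattern is read from so few. In tumour against node, the log2 fold change was -1.84 ± 0.39 for Hist1h2bj and -2.16 ± 0.502 for Hist1h2ag (edgeR adjusted p = 0.00313 and 0.00493).

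The next 3 by p were higher in Foxp3ΔJag1 nodes without passing the test. Hist3h2a had 10.1, 8.63 and 9.23 CPM, wholly above its control nodes (0.26 ± 0.137, edgeR adjusted p = 0.953). Hist2h4 had 1.87, 1.63 and 1.48 CPM, overlapping the controls (0.51 ± 0.281, edgeR adjusted p = 0.953). Hist1h2be had 2.86, 2.11 and 2.25 CPM against 1.98, 1.72 and 1.89 CPM in control nodes (0.35 ± 0.206, edgeR adjusted p = 0.953), and 1.86, 1.78 and 1.81 CPM in the tumours (0.02 ± 0.217, edgeR adjusted p = 0.933). Over all 65 members, Foxp3ΔJag1 nodes lay wholly above the controls in 4, the other 2 being Hist4h4 and Hist1h4a, and wholly below in 2, against 4.09% and 2.96% of 31470 genes with a count in the nodes. The 4 and 2 members are 7.14% and 3.57% of the 56 with a count, and no pattern is read from so few.

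The lists set beside the members were likewise not called in the nodes. No tested gene of the 6 lists passed (edgeR). In each list the genes with the smallest p all had an edgeR adjusted p of 0.953. For 3′ end processing these were Ctif, Npat and Slbp, with log2 fold changes of -0.42, -0.15 and -0.14, and for the variants H1fx, H3f3b and H3f3a, with 0.46, 0.18 and -0.16. For the chaperones Nasp, Chaf1a and Rbbp7 the values were -0.18, -0.24 and -0.16, for S phase Ccne1, Cdk2 and Rrm1 -0.17, -0.12 and -0.23, and for mitosis Kif11, Bub1 and Aurka -0.35, -0.35 and -0.36. Of the S phase genes 22 of 24 had a negative log2 fold change (median -0.14), as had all 14 of G2 and mitosis (median -0.29), while all 7 tested genes of the list with RNAs without a poly(A) tail had a positive one (median 0.41). The median over all genes tested was -0.0045. The summed CPM of each of these lists overlapped between genotypes. S phase genes summed to 1153 to 1458 CPM in control nodes and 1134 to 1355 CPM in Foxp3ΔJag1 nodes. Those of G2 and mitosis summed to 542 to 846 CPM and 525 to 716 CPM. In both lists the lowest control was node 3. For the list with RNAs without a poly(A) tail, that node summed to 2845 CPM, against 1621 and 1316 CPM in control nodes 1 and 2. The Foxp3ΔJag1 nodes summed to 2372 to 3021 CPM there. The part of these directions in the members' values was not tested. In the list with RNAs without a poly(A) tail, the smallest p belonged to Rn7sk, Neat1 and Rmrp. Rn7sk and Neat1 stood at 1.36 and 0.41. Rmrp, the RNA of the ribonuclease MRP, had 0.716, 0.72 and 0.649 CPM in control nodes and 3.77, 0.875 and 1.98 CPM in Foxp3ΔJag1 nodes (1.64 ± 0.48, edgeR adjusted p = 0.953).

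**Figure D5:**
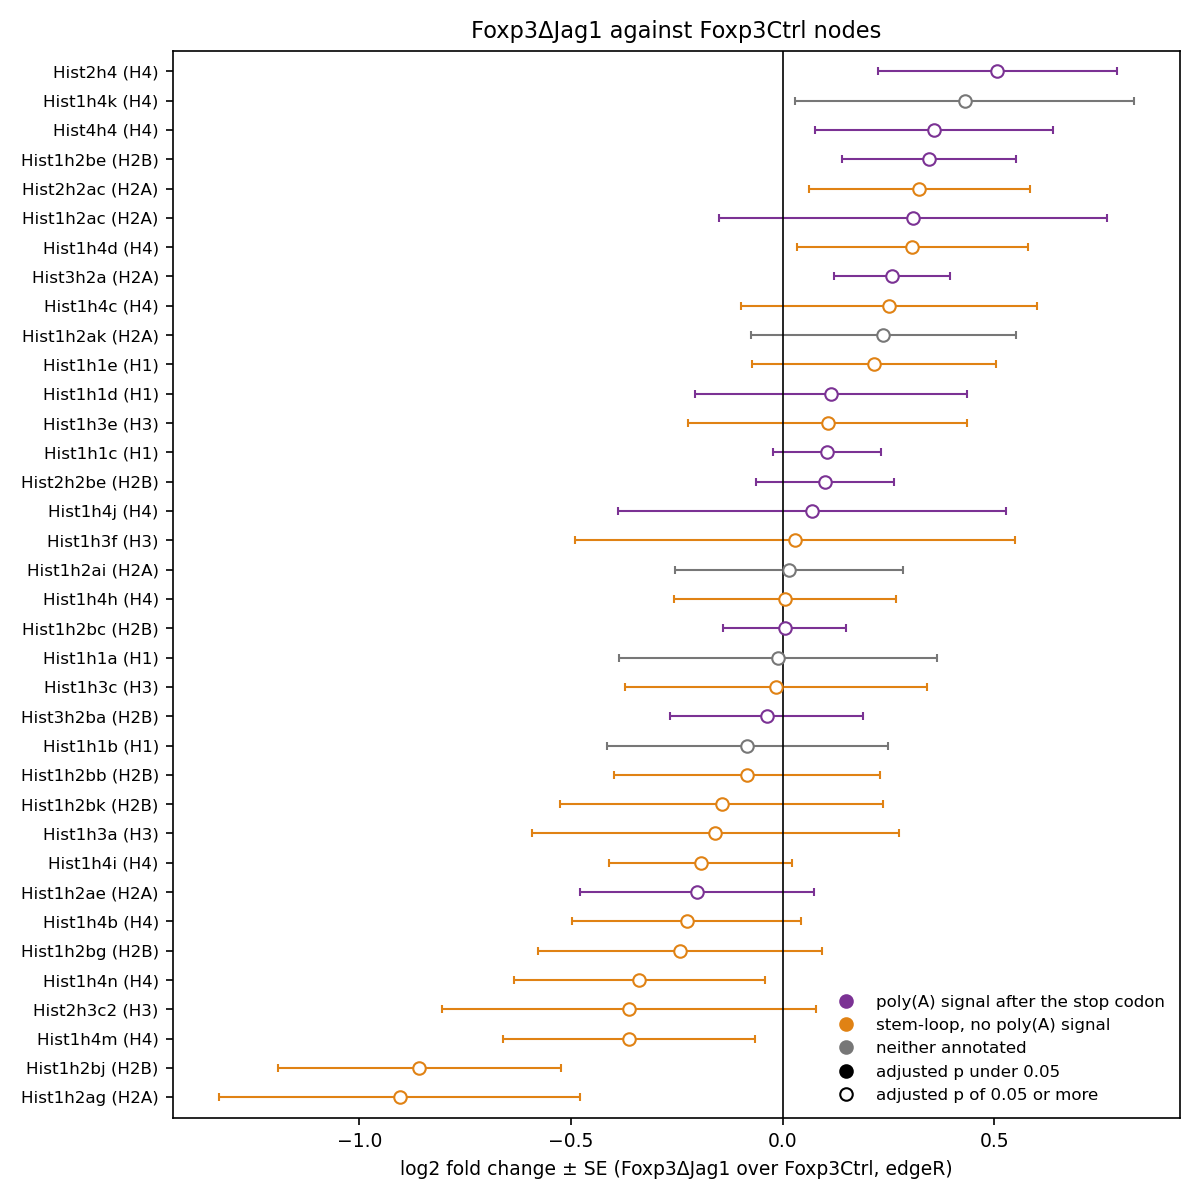
Log2 fold change with its standard error for the 36 tested members, Foxp3ΔJag1 over Foxp3Ctrl nodes, coloured by annotated 3′ end, with all points open because no adjusted p is under 0.05. Values run from -0.90 for Hist1h2ag to 0.51 for Hist2h4, and Hist1h2ag and Hist1h2bj lie apart at the lower end.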

How the data were processed

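Gene counts of 9 libraries were used: 3 Foxp3Ctrl tdLN, 3 Foxp3ΔJag1 tdLN and 3 Foxp3Ctrl tumours of 13 samples in the labels. The deposited values are raw whole-number counts per gene, made by the authors with Trimmomatic 0.36, STAR 2.5.2b and featureCounts (Subread 1.5.2) on GRCm38, per the submitters' processing notes. Not given in the sources used here are the annotation, the strand setting and how reads matching several genes were treated. A further 3 columns match no sample and were not used. Of 49315 identifiers, 48970 matched GENCODE M21.

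CPM is the count per 1000000 counts of the library. Tests used edgeR 4.0.16 (R 4.3.3; TMM, filterByExpr, robust quasi-likelihood, Benjamini-Hochberg FDR 0.05 over all genes), fitted on the whole table with the 2 groups compared. DESeq2 1.42.0, limma 3.58.1 (voom) and other filters, scalings and left-out replicates were alternatives. The procedure was also tested on simulated data. Library names give each control node and tumour the same mouse code. For the 3 mice, deviations of the node and of the tumour from the group mean had correlations of -0.073, 0.121 and -0.005, and the mouse as a block was an alternative. Hist3h2a is the one named member whose call it ended.

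Members described by name were the testis genes, all of Hist3 and Hist4, the 3 highest per class in CPM per kb, up to 2 per class and direction with the smallest p in tumour against node, and the 5 smallest p between nodes. The first 3 per list by p were named too, except 1 that is not reported here. Other genes are named only to complete a count and were chosen after their values were seen. The members, lists and tests were chosen with earlier results of these data known. Sequences and 3′ ends come from GENCODE M21 transcripts and promoter windows from RefSeq. Analysis of sequence used Python 3.11.15.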

Additional observations from a re-analysis of the deposited data

How the results depend on the processing

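No member was called between node genotypes under any alternative run, and the median log2 fold change there was -0.064 to 0.18 when each replicate was left out in turn, negative without control node 3 (-0.064) or Foxp3ΔJag1 node 1 (-0.047). In the node comparison the replicate numbers are shared without a stated link, same-number correlations were -0.188, 0.042 and -0.136, and the replicate block left the count at 0. In tumour against node, 22 to 27 members were called with a replicate left out (median -1.51 to -1.11). The mouse as a replicate block gave 3 higher and 18 lower of 21 called (median -1.37) and, among the named members, changed only the call of Hist3h2a. A minimum of 1 CPM in at least 3 libraries tested 11 members and called 8, of which 5 were lower, with a median of -0.016. The change comes from testing fewer members. Hist1h2be, uncalled throughout, changed sign with library size only (-0.036), with that minimum (-0.016) and without control node 2 (-0.0069) or 3 (-0.018), and ranged from -0.018 to 0.073 over the left-out replicates. Left without Hist1h1c, the summed level was 68.0 CPM in control nodes, 72.5 in Foxp3ΔJag1 nodes and 86.6 in tumours. Members under about 1 CPM rest on few counts per library, and shared sequence limits which gene a read is given to.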
